A study of Mus musculus with 5 samples.

Results

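The expression of 10 genes of MHC class I antigen presentation was examined in mouse neural stem cells (NSCs) and STO cells. The genes were chosen by name for their place in the pathway, with earlier results of these data known: the heavy chains H2-K1, H2-D1 and H2-T23, the light chain B2m, the peptide transporter genes Tap1 and Tap2, the loading factor Tapbp, the immunoproteasome subunits Psmb8 and Psmb9, and the regulator Nlrc5. All 10 were found among the 24844 genes of the series, through 13 RefSeq transcripts. RNA-seq was performed on 5 samples, of which 2 were NSCs and 3 were STO cells, and the authors deposited FPKM, fragments scaled for transcript length and library size. The study compared chromatin structure and expression of stem cells with that of a somatic line, and NSCs against STO cells is the comparison that these samples allow.

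The NSCs were primary cells from embryonic mouse cortex at passages 5 to 8, grown without serum as a monolayer on poly-ornithine and laminin in neural basal medium with EGF, bFGF, heparin and B27. The STO cells were SIM mouse embryonic fibroblasts resistant to thioguanine and ouabain, an established feeder line at over 30 passages, grown in DMEM with fetal bovine serum. The labels give the strain C57BL/6 for both, although the name of the STO line gives SIM mice as its origin, and the strain was not tested. No genetic change or treatment was given for either, and neither medium as described holds an interferon. Since each cell type had its own medium, an effect of cell type and one of culture cannot be told apart. All STO samples come from 1 line, and nothing states that the replicates were separate cultures, so the p-values measure only the spread between these samples, which may be technical.

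Class I molecules carry peptides from inside the cell to its surface, where they are read by CD8 T cells and natural killer cells. Proteasomes cut the peptides, the TAP transporter moves them into the endoplasmic reticulum, and tapasin, the product of Tapbp, helps to load them onto a heavy chain paired with beta-2 microglobulin. Interferons raise the transcription of most of these genes, through factors such as IRF1 and the class I activator NLRC5, and cells of the developing nervous system are known for low class I levels.

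Markers of the labelled cell types were high. Summed FPKM of 5 neural stem cell markers was 986 to 1028 in NSCs and 0.0442 to 0.0724 in STO cells, and that of 5 fibroblast markers was 31.4 in both NSC samples, nearly all of it Pdgfra, and 1295 to 1380 in STO cells. Markers of immune and vascular cells were low. The 7 microglia and macrophage markers summed to 2.18 to 3.10 FPKM in NSCs and 1.10 to 1.26 in STO cells, largely from Cd68, while Tyrobp was listed at 0 in all 5 samples and Ptprc did not exceed 0.0169. The 4 endothelial markers summed to 0.458 to 0.510 and 0.341 to 0.576. Both astrocyte markers summed to 62.7 to 62.9 in NSCs and 0.150 to 0.219 in STO cells, and of these Gfap, which the study used as a negative control for NSCs, was at 15.9 and 16.9 in the NSC samples. The deposited confidence intervals imply 15223341 to 22271922 fragments per sample. Across all 12278 genes tested, 41.9% were higher and 43.7% lower in STO cells at an adjusted p under 0.05, so that a called difference was common between these cell types.

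The stretches of DNA before the start sites are shown for the genes that moved in different directions, since the class I pathway is known for shared promoter elements. They are the 200 bases before the annotated start (RefSeq, GRCm38.p6), 5′ to 3′ on the strand of the gene, available for 8 of the 10 members, and capitals mark matches to any of 5 motifs on either strand. The motifs were an interferon-stimulated response element (GAAA, 2 bases of any kind, GAAA), a kappa-B site (GGGA, 3 bases of any kind, CCC), an X2-like site (TGACGC), a Y box (ATTGG) and an interferon-gamma activated site (TTCCNNGAA). H2-K1 lies at chr17:34000348-34000547 on the minus strand, H2-D1 at chr17:35262894-35263093 on the plus strand, H2-T23 at chr17:36032702-36032901 on the minus strand, B2m at chr2:122147487-122147686 and Psmb8 at chr17:34197995-34198194, both on the plus strand.
H2-K1: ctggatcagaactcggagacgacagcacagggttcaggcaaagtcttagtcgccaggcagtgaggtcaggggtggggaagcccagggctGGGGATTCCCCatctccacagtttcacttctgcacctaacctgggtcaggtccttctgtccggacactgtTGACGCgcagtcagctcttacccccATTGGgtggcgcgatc
H2-D1: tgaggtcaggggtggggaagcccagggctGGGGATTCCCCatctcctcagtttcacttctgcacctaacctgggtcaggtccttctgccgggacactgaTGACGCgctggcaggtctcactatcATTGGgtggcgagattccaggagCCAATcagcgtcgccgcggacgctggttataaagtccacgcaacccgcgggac
H2-T23: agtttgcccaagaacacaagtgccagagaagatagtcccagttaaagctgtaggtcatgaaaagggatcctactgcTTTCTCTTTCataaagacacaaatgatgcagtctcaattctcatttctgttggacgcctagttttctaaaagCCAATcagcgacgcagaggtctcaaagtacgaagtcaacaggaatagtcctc
B2m: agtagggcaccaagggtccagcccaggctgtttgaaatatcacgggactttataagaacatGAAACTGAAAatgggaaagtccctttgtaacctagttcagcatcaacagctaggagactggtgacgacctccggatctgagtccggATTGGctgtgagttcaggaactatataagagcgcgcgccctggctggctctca
Psmb8: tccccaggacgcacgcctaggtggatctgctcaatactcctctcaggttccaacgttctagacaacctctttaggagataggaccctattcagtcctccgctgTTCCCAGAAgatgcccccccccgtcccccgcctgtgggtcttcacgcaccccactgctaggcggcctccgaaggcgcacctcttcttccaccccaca

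The H2-K1 and H2-D1 windows share a run of 46 bases, which begins at the edge of the H2-D1 window and so may be longer. The run holds the kappa-B match that begins 110 bases before the start of H2-K1 and 170 bases before that of H2-D1. Each window also holds the X2-like site and a Y box. Among the 8 windows, the kappa-B motif was in these 2 alone, as was the X2-like site, against 3.85% and 5.42% of the windows of all 27025 genes. The interferon element, in the exact spelling searched, was in the windows of B2m and H2-T23 and in 2.33% of all windows. The Y box was in 6 of the 8 and in 30.0% of all, and the interferon-gamma activated site was in the window of Psmb8 and in 3.36% of all. In the window of H2-K1, the kappa-B motif matches on both strands with an offset of 1 base, and the same holds for H2-D1. These are matches of letters only. A fixed pattern misses sites that differ from it by 1 base or more, so a window without a match, those of H2-K1 and H2-D1 included, may still hold such an element.

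Psmb9 and Tap1 are read in opposite directions from starts that lie close together. In the deposited files (mm9), Psmb9 spans chr17:34319044-34324275 and Tap1 chr17:34324501-34334170, which leaves 225 bases between them. The whole stretch between the RefSeq starts, chr17:34187331-34187555 in GRCm38.p6 on the strand of Tap1, is shown because Tap1 was called higher in STO cells and Psmb9 was not, and its 1 match is a Y box near the start of Psmb9.
Psmb9 to Tap1: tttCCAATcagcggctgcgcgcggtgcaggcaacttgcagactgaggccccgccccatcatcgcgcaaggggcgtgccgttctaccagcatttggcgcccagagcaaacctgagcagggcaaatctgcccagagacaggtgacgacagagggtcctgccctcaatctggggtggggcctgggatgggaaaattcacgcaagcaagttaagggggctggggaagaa

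Of the 10 members, 9 had a mean of at least 1 FPKM in NSCs or in STO cells and were tested, and all but Psmb8 of these reached it in both. In STO cells 6 of the 9 were higher (H2-K1, H2-T23, B2m, Tap1, Tap2 and Tapbp), 2 were lower (H2-D1 and Psmb8), and Psmb9 was not called, while 85.7% of all genes tested were called in either direction. The median log2 fold change of FPKM + 1 over the 9 was 1.23, against -0.023 over all genes tested. For 6 members every STO sample lay above every NSC sample and for 2 below, and among all genes tested 43.9% and 46.0% did so, or 90.0% in either direction. A fold change on this scale understates that of genes with low values. In bulk samples, fewer cells with a transcript and less of it per cell cannot be told apart.

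**Figure D1:**
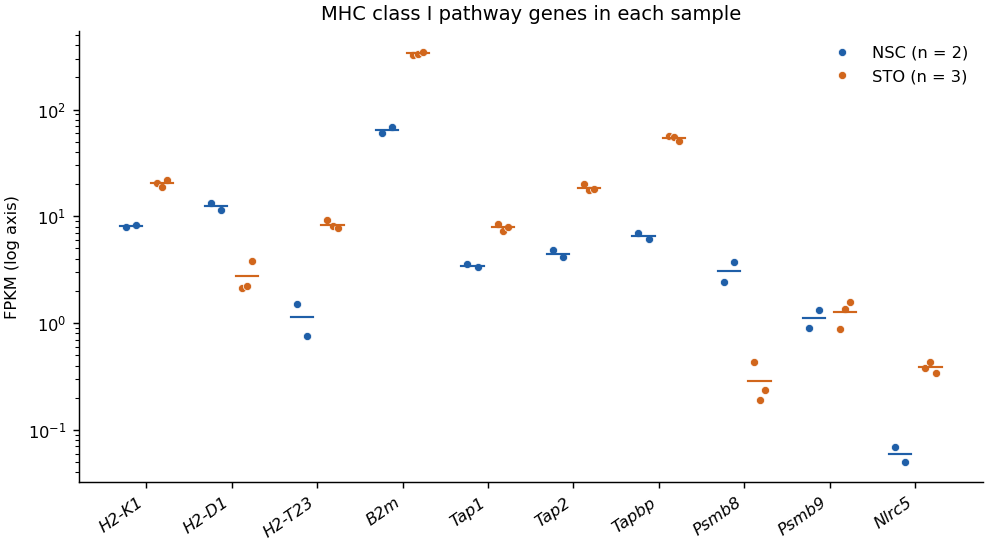
FPKM of the 10 class I pathway genes (horizontal axis) in each sample on a log axis, with NSC samples in blue, STO samples in orange and short lines for the group means. B2m is the highest in both cell types, H2-D1 and Psmb8 are the genes whose STO samples all lie below the NSC samples, and Psmb9 is the gene whose groups overlap.

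Among the heavy chains, which hold the peptide, H2-K1 and H2-D1 changed in opposite directions. H2-K1 (mm9, chr17:34132957-34137292), a classical class I gene, was at 7.92 and 8.27 FPKM in the NSC samples and at 20.44, 18.75 and 22.04 FPKM in the STO samples. The groups did not overlap, and the STO mean was 2.52 times the NSC mean (log2 fold change 1.23 ± 0.076 (SE), adjusted p = 1.02e-05, limma). Its second transcript, NM_001347346, was listed at 0 in both NSC samples and STO replicate 3, and at 2.89 and 2.01 FPKM in STO replicates 1 and 2. H2-D1 (chr17:35400039-35404442), the other classical gene, was at 13.4 and 11.5 FPKM in NSCs and at 2.15, 2.23 and 3.85 FPKM in STO cells. STO replicate 3 stood above the other two, but all 3 were far below the NSC samples, and the NSC mean was 4.53 times the STO mean (log2 fold change -1.87 ± 0.20 (SE), adjusted p = 0.000149, limma). H2-D1 thus made up 62.8% and 58.1% of the summed FPKM of these 2 genes in NSCs and 9.50%, 10.62% and 14.9% in STO cells, values chosen for description after they were seen.

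H2-T23 (chr17:36166922-36169646), which encodes the nonclassical molecule Qa-1 read by receptors of natural killer cells, was at 1.52 and 0.749 FPKM in NSCs and at 9.16, 8.17 and 7.82 FPKM in STO cells. It was low in both NSC samples, with 60 and 33 implied fragments, and the STO mean was 7.38 times the NSC mean, or 11.2 times without NSC replicate 1 and 5.51 times without NSC replicate 2 (log2 fold change 2.16 ± 0.16 (SE), adjusted p = 2.21e-05, limma). The order of the 3 heavy chains by FPKM was therefore H2-D1, H2-K1 and H2-T23 in both NSC samples and H2-K1, H2-T23 and H2-D1 in all 3 STO samples, with no overlap between neighbours in either cell type.

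Heavy chain genes resemble each other and differ between mouse strains, and FPKM counts fragments that match the reference. In the GENCODE transcripts of mm9, none of the 2025 windows of 100 bases of H2-K1 recurred in another gene, while 3.91% of those of H2-D1 did, mostly in H2-Q2, and 4.44% of those of H2-T23. The H2 haplotype of the STO cells was not tested, and its part in the H2-D1 and H2-K1 values was not tested either.

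B2m (chr2:121973423-121978818), the light chain that every class I heavy chain needs, was the highest member in every sample. Its level was 60.4 and 69.1 FPKM in NSCs and 327, 330 and 348 FPKM in STO cells. The groups were far apart, with an STO mean of 335 ± 11.1 (SD, n = 3) against 64.7 ± 6.16 (SD, n = 2) in NSCs, or 5.17 times as high (log2 fold change 2.36 ± 0.076 (SE), adjusted p = 4.15e-07, limma). In STO cells 98.7% of the tested genes had a lower mean than B2m, and in NSCs 90.3%. The summed FPKM of the 3 heavy chains relative to that of B2m, a measure within each sample that does not depend on the scaling between libraries, was 0.378 and 0.296 in NSCs and 0.0971, 0.0882 and 0.0970 in STO cells. It was lower in all 3 STO samples, with p = 0.1 in a two-sided exact permutation test, the smallest p that 2 against 3 samples allow. This ratio leaves out the other class I heavy chain genes, which summed to 23.8 to 24.7 FPKM in NSCs and 79.3 to 87.6 in STO cells. Among those, H2-T22 was at 6.81 and 6.40 FPKM in NSCs and at 27.0, 25.4 and 27.2 in STO cells, above H2-K1 there.

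Both transporter genes were higher in STO cells. Tap1 (chr17:34324501-34334170) was at 3.56 and 3.36 FPKM in NSCs and at 8.52, 7.28 and 7.91 FPKM in STO cells. Its STO mean was 2.29 times the NSC mean (log2 fold change 1.00 ± 0.074 (SE), adjusted p = 2.44e-05, limma). Tap2 (chr17:34341424-34353266), whose product pairs with that of Tap1, was at 4.80 and 4.13 FPKM in NSCs and at 19.9, 17.6 and 18.1 FPKM in STO cells. This was 4.16 times as high on average (log2 fold change 1.84 ± 0.081 (SE), adjusted p = 1.91e-06, limma). The level of Tap2 relative to Tap1 was 1.35 and 1.23 in NSCs and 2.34, 2.42 and 2.29 in STO cells, a ratio that was looked at after the values were seen and was not tested. Of the 2 Tap1 transcripts, NM_001161730 was listed at 0 in all 5 samples, so that these values are those of NM_013683.

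Tapbp (chr17:34056423-34066235) had the largest difference of the members on the scale of log2(FPKM + 1), while the ratio of the means was larger for Psmb8. It was at 7.04 and 6.15 FPKM in NSCs and at 56.0, 55.1 and 51.2 FPKM in STO cells. Both groups were narrow and the STO mean was 8.20 times the NSC mean (log2 fold change 2.86 ± 0.073 (SE), adjusted p = 1.41e-07, limma). Of all genes tested, 35.6% had a lower mean than Tapbp in NSCs and 88.3% in STO cells. It is listed with 2 transcripts. NM_001025313 was at 4.83 and 3.98 FPKM in NSCs and 26.2, 25.3 and 21.1 in STO cells, and NM_009318 was at 2.21 and 2.17 in NSCs and 29.7, 29.8 and 30.2 in STO cells. The share of NM_009318 was thus 31.4% and 35.3% in NSCs and 53.1%, 54.0% and 58.8% in STO cells. These transcripts overlap, so their division is an estimate of Cufflinks, and the share was chosen for description after it was seen.

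**Figure D2:**
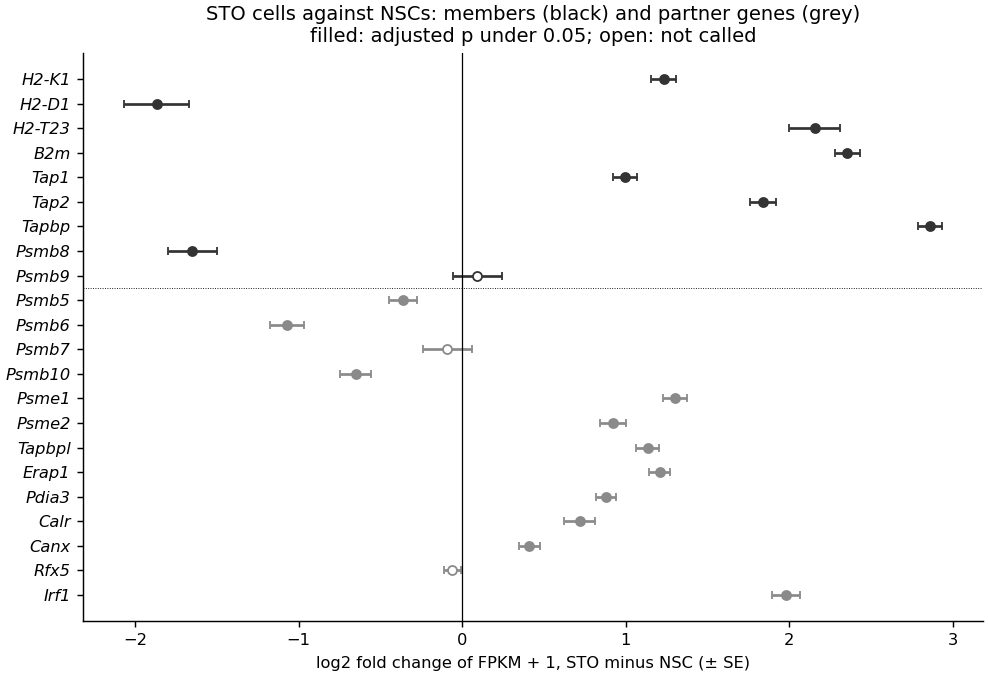
Log2 fold change of FPKM + 1 (STO minus NSC, horizontal axis) with its standard error for the 9 members tested (black) and 13 partner genes (grey), filled where the adjusted p was under 0.05. Values range from -1.87 for H2-D1 to 2.86 for Tapbp among the members, and Psmb9, Psmb7 and Rfx5 are open points near 0.

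The immunoproteasome subunits, which replace standard catalytic subunits and favour peptides that fit class I grooves, did not both go the way of the transporter genes beside them, since Psmb8 was lower in STO cells and Psmb9 was not called. Psmb8 (chr17:34335140-34338399) was at 2.42 and 3.75 FPKM in NSCs and at 0.435, 0.190 and 0.238 FPKM in STO cells. The deposited intervals ran from 1.91 to 2.92 and from 3.15 to 4.35 in NSCs, and from 0.183 to 0.687, 0.0348 to 0.345 and 0.0843 to 0.391 in STO cells. They did not overlap between cell types, although the STO values rest on 12, 6 and 10 implied fragments. The NSC mean was 10.7 times the STO mean (log2 fold change -1.65 ± 0.15 (SE), adjusted p = 7.08e-05, limma). Psmb8 passed the minimum of 1 FPKM through NSCs alone, so that it could hardly have been called higher in STO cells, and without that minimum its adjusted p was 0.000335.

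Psmb9 (chr17:34319044-34324275) was at 0.907 and 1.33 FPKM in NSCs and at 0.880, 1.34 and 1.59 FPKM in STO cells. The groups overlapped and the difference was within the spread of the replicates (log2 fold change 0.094 ± 0.15 (SE), adjusted p = 0.578, limma), with 16 to 43 implied fragments per sample. Its direction changed between alternatives, and with quantile normalization it was called higher in STO cells (log2 fold change 0.81, adjusted p = 0.00136, limma). Tap1, across the 225 bases shown above, was 2.29 times as high in STO cells, and a test of the difference between these 2 changes was not run.

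Each immunoproteasome subunit was set against the standard subunit whose place it takes, within the same sample. Psmb8 made up 2.54% and 4.37% of the summed FPKM of Psmb8 and Psmb5 in NSCs and 0.604%, 0.304% and 0.340% in STO cells. All STO samples were lower (exact permutation p = 0.1, two-sided, the smallest possible). Psmb9 made up 0.463% and 0.574% of Psmb9 and Psmb6 in NSCs and 0.861%, 1.45% and 1.44% in STO cells. This share was higher in all STO samples (exact permutation p = 0.2, two-sided), while Psmb6 itself was lower in them, at 195 and 231 FPKM in NSCs and 101, 91.6 and 109 FPKM in STO cells (log2 fold change -1.07 ± 0.10 (SE), adjusted p = 9.38e-05, limma). Psmb10, the third subunit of this kind, made up 8.86% and 13.05% of Psmb10 and Psmb7 in NSCs and 7.90%, 6.75% and 7.38% in STO cells (exact permutation p = 0.1, two-sided). Its own level was 15.7 and 16.9 FPKM in NSCs and 10.65, 8.80 and 10.74 FPKM in STO cells (log2 fold change -0.65 ± 0.095 (SE), adjusted p = 0.000731, limma). In both cell types the standard subunit was the greater part of each pair by far. Psmb5 was at 62.2 to 92.7 FPKM over the 5 samples and was called lower in STO cells (log2 fold change -0.36, adjusted p = 0.0072, limma), a call that was lost after rescaling to the same sum (adjusted p = 0.059) and without NSC replicate 1 (log2 fold change -0.27, adjusted p = 0.0854). Psmb7 was at 113 to 161 FPKM and was not called (adjusted p = 0.588). Without NSC replicate 2 it was called lower (log2 fold change -0.35, adjusted p = 0.0282), and without NSC replicate 1 its direction turned (0.17, adjusted p = 0.141).

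**Figure D3:**
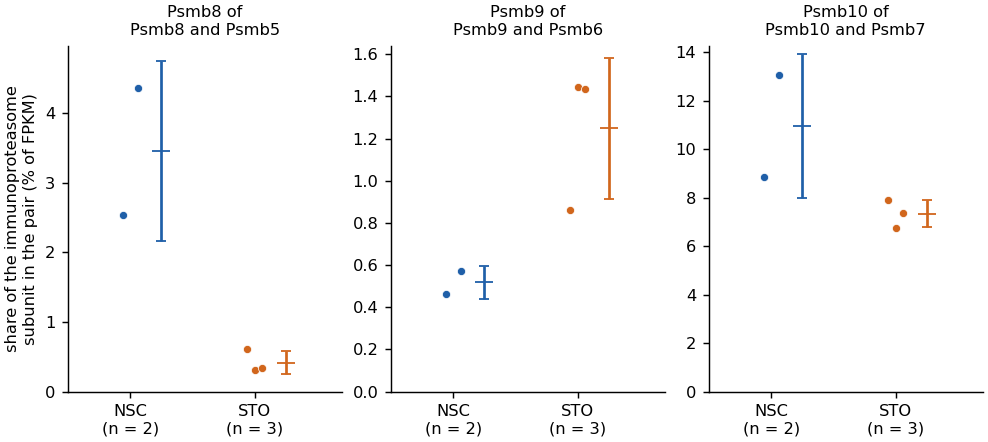
Share of the immunoproteasome subunit in the summed FPKM of each catalytic pair, in percent, for each sample (points) with the group mean ± SD beside them. The Psmb8 share is 3.45 ± 1.29 in NSCs (SD, n = 2) and 0.416 ± 0.164 in STO cells (SD, n = 3), and the Psmb9 share has its highest value, 1.45, in an STO sample.

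Nlrc5 (chr8:96996663-97051172), the transactivator of class I promoters, was too low to be tested with the other genes. It was at 0.0687 and 0.0502 FPKM in NSCs and at 0.377, 0.434 and 0.343 FPKM in STO cells, from 15 and 12 implied fragments in NSCs and 57, 76 and 80 in STO cells. The deposited intervals reached 0.104 and 0.0792 in NSCs and began at 0.277, 0.335 and 0.267 in STO cells, so that the groups were apart beyond the counting error, with a ratio of the means of 6.48. When all 17646 genes with a value above 0 were tested, its log2 fold change was 0.39 ± 0.034 (SE) with an adjusted p of 0.000217 (limma), where 33.5% of the genes were called higher in STO cells.

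Other class I heavy chain genes went in both directions, as H2-K1 and H2-D1 did. Of 32 genes listed, 30 were in the files, 12 of them at 0 in all samples, and 9 could be tested. In STO cells 7 were higher and 2 lower, with a median log2 fold change of 1.86, where 41.9% of all genes tested were higher and 43.7% lower. Only 4 of the 9 reached the minimum in both cell types, 4 passed through STO cells alone (H2-Q4, H2-M3, H2-T10 and H2-T24) and 1 through NSCs alone (H2-Q7), so these counts are a description. Without the minimum 18 could be tested, of which 10 were higher and 6 lower. Of the 17646 genes in that test, 33.5% were called higher and 6551 genes were called lower. The largest log2 fold change of FPKM + 1 was that of H2-Q4, which was at 0.621 and 0.631 FPKM in NSCs and at 19.4, 16.4 and 19.8 FPKM in STO cells (log2 fold change 3.58 ± 0.089 (SE)), while the ratio of the means was greater for H2-M3, at 31.8 against 29.6 for H2-Q4. Fcgrt, the neonatal Fc receptor, which also pairs with beta-2 microglobulin, was at 1.39 and 1.33 FPKM in NSCs and at 14.6, 13.8 and 14.9 FPKM in STO cells (log2 fold change 2.71 ± 0.058 (SE), adjusted p = 6.16e-08, limma). H2-M3, which presents formylated peptides, was at 0.112 and 0.306 FPKM in NSCs and at 7.59, 5.65 and 6.65 FPKM in STO cells. The 2 that were lower, named after their values were seen, were H2-Q7, at 2.72 and 2.69 FPKM in NSCs and 0.0937, 0 and 0.123 in STO cells, and Cd1d1, which presents lipids, at 9.54 and 8.83 in NSCs and 3.73, 3.59 and 3.80 in STO cells. H2-Q7 shared 10.7% of its windows of 100 bases with H2-Q6, so that the division of reads between these copies is uncertain. H2-Q1, H2-Q5, H2-Q8 and H2-Q9 had no windows in the transcripts compared, so sharing with them was not measured. The part of the untested haplotype of the STO cells in the H2-Q7 values was not tested.

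**Figure D4:**
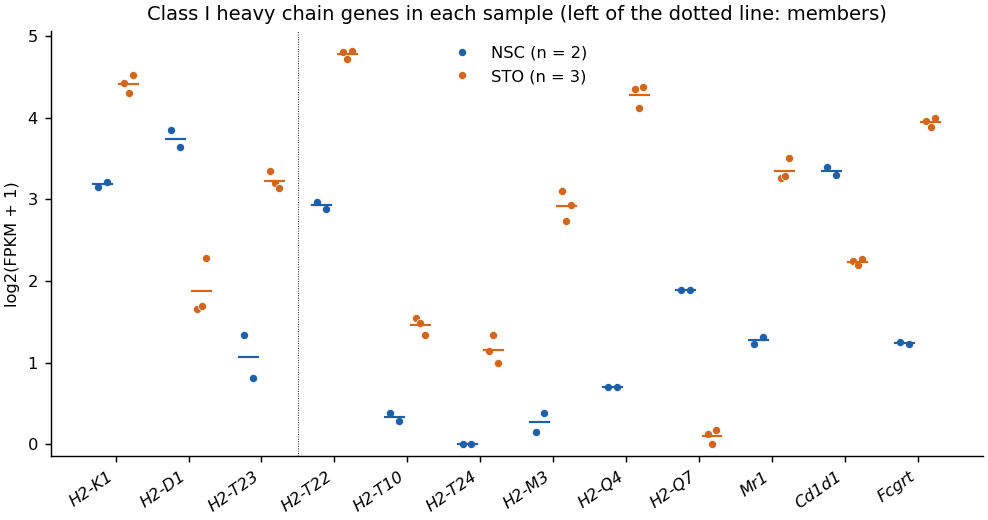
Log2(FPKM + 1) of the 3 heavy chain members and the 9 other class I heavy chain genes tested, for each NSC sample (blue) and STO sample (orange) with lines for the means. H2-D1, H2-Q7 and Cd1d1 are the genes whose STO samples lie below the NSC samples, and the other 9 have them above.

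The 8 loading and trimming partners were all higher in STO cells, with a median log2 fold change of 0.80, and 7 were called when either NSC replicate was left out. Among all genes tested, 41.9% were higher and 43.7% lower. Mean levels of the 8 ran from 1.19 FPKM (Tapbpl) to 380 FPKM (Calr) in NSCs and from 3.82 to 625 FPKM for the same genes in STO cells. Erap1, the aminopeptidase that trims peptides in the endoplasmic reticulum, was at 3.15 and 3.14 FPKM in NSCs and at 8.06, 8.63 and 9.12 FPKM in STO cells (log2 fold change 1.21 ± 0.064 (SE), adjusted p = 4.62e-06, limma). Tapbpl, a relative of tapasin that edits peptides, was at 1.15 and 1.23 FPKM in NSCs and at 3.87, 3.47 and 4.13 FPKM in STO cells. The chaperones of the loading complex, which also serve many other proteins, had smaller differences. The log2 fold change was 0.88 ± 0.061 (SE) for Pdia3, 0.72 ± 0.098 (SE) for Calr and 0.41 ± 0.064 (SE) for Canx. Canx was at 135 and 125 FPKM in NSCs and at 167, 180 and 175 FPKM in STO cells.

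Of 19 genes of the proteasome core and its caps and assembly, 5 were higher, 9 lower and 5 not called in STO cells, with a median log2 fold change of -0.19. Over all genes tested, 41.9% were higher and 43.7% lower. The number that were lower fell to 4 after rescaling to the same sum and to 5 without NSC replicate 1. Psme1 and Psme2, subunits of the PA28 cap that opens the core and is induced by interferon gamma, were among those that rose. Psme3, another cap gene, was lower (log2 fold change -0.27 ± 0.060 (SE), adjusted p = 0.00608, limma). Psme1 was at 21.1 and 23.8 FPKM in NSCs and at 56.5, 54.4 and 59.1 FPKM in STO cells (log2 fold change 1.30 ± 0.071 (SE), adjusted p = 5.26e-06, limma). Psme2 was at 34.2 and 34.9 FPKM in NSCs and at 69.0, 60.2 and 70.7 FPKM in STO cells (log2 fold change 0.92 ± 0.080 (SE)). The other genes that rose, named after their values were seen, were the core subunits Psma1, Psma4 and Psmb1. The largest fall was that of Psmb2, the core subunit at 161 and 186 FPKM in NSCs and at 80.0, 72.6 and 76.3 FPKM in STO cells.

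Among 13 regulators of class I promoters, 12 were tested, of which 6 were higher, 2 lower and 4 not called. The shares over all genes tested were 41.9% higher and 43.7% lower. The number of regulators that were lower was 4 with quantile normalization, 3 without STO replicate 2 or without the minimum, and 5 with the highest transcript of each gene alone. Nfkb1, whose product is the p50 subunit of NF-kappa-B, was at 7.06 and 6.77 FPKM in NSCs and at 39.7, 38.6 and 39.9 FPKM in STO cells (log2 fold change 2.35 ± 0.050 (SE), adjusted p = 5.95e-08, limma). Irf1, an interferon regulatory factor that binds class I genes, was at 5.19 and 6.16 FPKM in NSCs and at 26.5, 23.8 and 25.7 FPKM in STO cells (log2 fold change 1.98 ± 0.083 (SE), adjusted p = 1.53e-06, limma). Atf1, of the CREB family that binds the X2 box, had a log2 fold change of 1.75 ± 0.081 (SE). The RFX complex, which binds the X1 box, did not move this way. Rfx5 was at 6.24 and 5.97 FPKM in NSCs and at 5.76, 5.75 and 5.95 FPKM in STO cells, where the highest STO value lay just under the lower NSC value, and there was no call (adjusted p = 0.322, limma), and its partners Rfxap and Rfxank were the 2 that fell (log2 fold changes -1.01 and -0.88). The highest transcript of Rfx5 taken alone was called lower (log2 fold change -0.52, adjusted p = 0.000426, limma).

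Of 10 interferon receptor and signalling genes, 9 were higher in STO cells and 1 was not called, against 41.9% higher and 43.7% lower of all genes tested. Their median log2 fold change was 0.35. Between 6 and 9 were higher over the alternatives, and Ifnar2 (adjusted p = 0.0495, limma) was not called without the minimum (adjusted p = 0.0692). Jak1, the kinase shared by the interferon receptors, was at 18.8 and 18.4 FPKM in NSCs and at 104, 113 and 114 FPKM in STO cells (log2 fold change 2.51 ± 0.061 (SE), adjusted p = 1.09e-07, limma). Irf9, part of the factor that binds interferon response elements, was at 2.90 and 2.61 FPKM in NSCs and at 10.35, 9.89 and 10.54 FPKM in STO cells (log2 fold change 1.58 ± 0.061 (SE), adjusted p = 1.02e-06, limma). Of 16 interferon-induced genes outside the class I pathway, 11 were tested, 10 were higher and Gbp3 was lower. Of the 11, 8 passed the minimum through STO cells alone, among them Gbp2, Ifit1 and Ifi35, so these counts are a description. Without the minimum all 16 were tested, of which 13 were higher and 3 lower (Gbp3, Mx2 and Rsad2). In that test 33.5% of all 17646 genes were called higher and 6551 genes were called lower. Gbp2 was at 0.622 and 0.721 FPKM in NSCs and at 10.51, 11.6 and 12.5 FPKM in STO cells. Ifit1 was at 0.0844 and 0.0880 in NSCs and at 5.81, 5.72 and 7.07 in STO cells, and Ifi35 at 0.959 and 0.662 in NSCs and at 9.22, 7.57 and 8.85 in STO cells. B2m, Tap1, Tap2 and Tapbp were higher in the same samples while Psmb8 was lower, and the part of interferon signalling in the class I values was not tested.

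**Figure D5:**
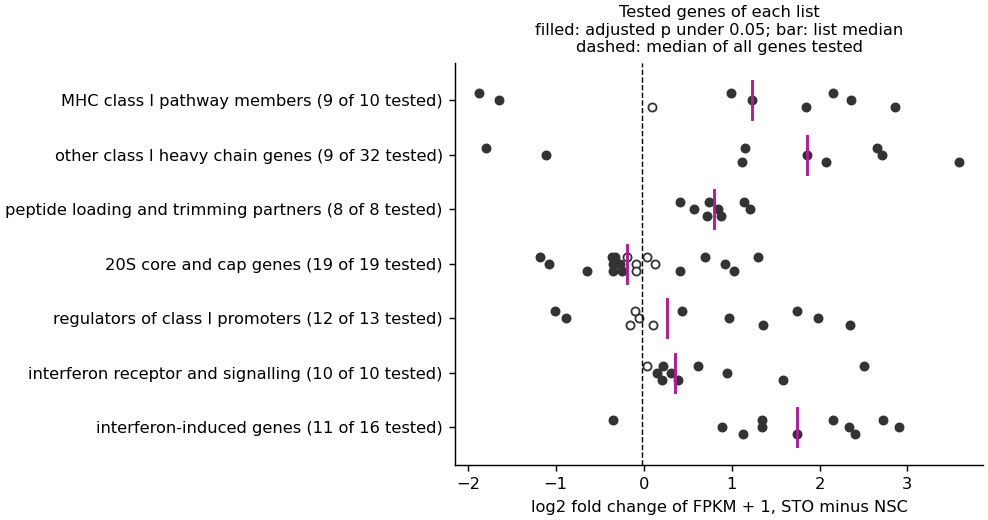
Log2 fold change of FPKM + 1 (STO minus NSC) of the tested genes of each list, filled where the adjusted p was under 0.05, with a bar at the median of the list and a dashed line at the median of all genes tested. The medians run from -0.19 for the proteasome core and cap genes to 1.86 for the other class I heavy chain genes.

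MHC class II genes, which serve antigen-presenting cells of the immune system, were under 1 FPKM in every sample, with the exception of H2-DMa. Of 6, H2-DMa was tested, at 4.26 and 4.45 FPKM in NSCs and 3.78, 3.71 and 3.92 in STO cells, and its call (adjusted p = 0.0286, limma) was lost when either scaling was changed (adjusted p = 0.496 and 0.778). Without NSC replicate 2, STO replicate 1 or STO replicate 2 it was lost as well (log2 fold changes -0.13, -0.15 and -0.14, adjusted p = 0.0648, 0.0706 and 0.083, limma). With the replicate number as a block its adjusted p was 0.0743. Ciita, the class II activator, was at 0.154 and 0.0899 FPKM in NSCs and at most 0.0299 in STO cells, and H2-Eb1 was at 0.248 and 0.209 in NSCs and listed at 0 in all STO samples. Cd74, the class II invariant chain, was higher in STO cells, at 0.0520 and 0.0712 FPKM in NSCs and 0.362, 0.569 and 0.555 in STO cells, and H2-DMb1 was listed at 0 in NSCs and at 0.0691, 0.512 and 0.204 in STO cells. Without the minimum, 1 of the 6 was called higher (Cd74) and 3 were called lower. Among all 17646 genes of that test, 33.5% were called higher and 6551 genes were called lower, so these counts are a description. Cd74, H2-DMb1 and H2-Eb1 were named after their values were seen.

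Of the members, 8 lie on chromosome 17 between Tapbp and H2-T23, in 2.11 Mb of mm9, and Psmb9, Tap1, Psmb8 and Tap2 follow each other within 34.2 kb. Direction did not go with position in this cluster, since Psmb8, lower in STO cells, begins 969 bases after the end of Tap1 and lies before Tap2, both of which were higher. Of the 70 other genes of the interval that were tested, 37 (52.9%) were higher and 21 (30.0%) lower in STO cells, with a median log2 fold change of 0.23. Over all genes tested these shares were 41.9% and 43.7%. Only the members were taken out of the interval, and other class I and class II genes were not. B2m on chromosome 2 and Nlrc5 on chromosome 8 lie outside the MHC.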

How the data were processed

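RNA-seq was measured in 2 NSC and 3 STO samples, grouped by their labels. By the study's methods, paired reads of stranded mRNA libraries were trimmed, Hisat2 placed them on mm9, and the authors deposited FPKM values from Cufflinks 2.2.1 on the RefSeq annotation, with confidence bounds, for 40201 transcripts. Whether counting used strand is not given in the sources used here. Depth was divided out in FPKM, so no read counts were used. Implied fragments were computed from the upper bound, 2 Poisson standard deviations above the value, and cover counting error only.

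Symbols were matched through RefSeq identifiers (99.4% of transcripts), FPKM was summed per symbol, and coordinates are those of the files, in mm9. STO cells and NSCs were compared by a moderated linear model with a mean-variance trend (limma 3.58.1, R 4.3.3) on log2(FPKM + 1). The 12278 genes whose mean reached 1 FPKM in either cell type were tested, adjusted p-values (Benjamini-Hochberg) under 0.05 were called, and the procedure was tested on simulated data. Within-sample ratios were compared by exact permutation tests in Python 3.11.15 with scipy 1.17.1. The members and lists were chosen with earlier results of these data known. Named genes were the members, 15 partner genes, and up to 3 genes of each other list with the largest called change, some of which are not reported here. Alternatives changed the pseudocount (0.1), the filter, the scaling, the trend, the replicate block, the summing and the samples. Chromatin data were not used here. The replicate numbers of the labels were not found to pair the samples.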

Additional observations from a re-analysis of the deposited data

How the results depend on the processing

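Under all alternatives other than a minimum size of the change, 8 of the 9 members tested kept their direction and their side of the threshold, and the 2 members that were lower remained H2-D1 and Psmb8. The exception was Psmb9, which reversed with the replicate block (-0.0069, adjusted p = 0.937, limma), without NSC replicate 1 (-0.051) and without STO replicate 3 (-0.0069), and leaving out 1 sample gave -0.051 to 0.24. Of 44 genes followed through the alternatives, 39 did not move in call or direction. Psmb7 reversed with quantile normalization (0.059), after rescaling to the same sum (0.084) and without NSC replicate 1 (0.17), with -0.35 to 0.17 over the samples left out, and Rfx5 reversed after rescaling (0.099). The cause was not tested.

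Rescaling to the same sum moved the median log2 fold change of all genes from -0.023 to 0.14 and the share of calls that were higher from 48.9% to 55.7%. With a minimum size of 1 on the log2 scale added to the call, 2099 genes were higher and 2613 lower, and 5 members were higher and 2 lower, since Tap1 fell just short of it. Leaving out 1 sample gave 4703 to 5060 genes higher and 4899 to 5247 lower, where a lone NSC sample is assumed to vary like the STO samples. It moved the difference in the Psmb8 share between -3.95 and -2.13 percentage points, that in the Psmb9 share between 0.63 and 0.923, that in the Psmb10 share between -5.70 and -1.51, and that in the ratio of H2-K1, H2-D1 and H2-T23 to B2m between -0.284 and -0.202. The Psmb10 value thus depends on which NSC sample is kept.

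The replicate number as a block gave 4988 genes higher and 5250 lower. Deviations from the group means correlated at 0.0029 and 0.065 across genes between same-numbered samples, so no pairing by number was found. The deviations of the NSC samples mirror each other, so these values cannot show that there was no pairing. Depth limits Psmb8 in STO cells, Psmb9 and Nlrc5, each with under 100 implied fragments in every STO sample. H2-D1 had 79, 93 and 205 implied fragments in the STO samples, and H2-T23 had 60 and 33 in the NSC samples.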
